A study of Mus musculus with 6 samples.

Results

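Growth factor receptors and their ligands were followed in a mouse fibroblast line. The genes were Pdgfra, Pdgfrb, Fgfr1, Egfr, Igf1r and Met, which encode receptor tyrosine kinases, and Fgf7, Fgf2, Hgf and Pdgfa, which encode ligands. Every probe set that the annotation of the array platform maps to one of these 10 genes was taken, which gave 14 of the 12488 probe sets on the array for 10 of its 8251 genes with a symbol. The rule takes probe sets by gene name and uses no measured signal, but the genes themselves were chosen with earlier results of these data known. No gene was without a probe set: Pdgfra and Egfr had 3 each and the other 8 genes had 1 each.

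A receptor tyrosine kinase spans the cell membrane, binds a ligand outside the cell and, when paired with a second receptor, phosphorylates itself and the adaptor proteins inside. The signal then runs through Ras, the MAP kinases and phosphoinositide 3-kinase to the genes of growth and division. Fibroblasts divide in answer to platelet-derived growth factor, basic fibroblast growth factor and the insulin-like growth factors. They also secrete Fgf7 and Hgf, which act mostly on epithelial cells. Because Ras lies below these receptors, a cell with an active Ras oncogene is known to depend less on them.

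The cells were NIH3T3 fibroblasts that stably carry c-myc and Ha-ras behind a Tet-off promoter, which doxycycline silences. They also make, at all times, a fusion of IRF-1 to a human estrogen receptor segment (IRF-1hER), which estradiol activates. All 6 arrays came from cells with both constructs, so no array shows cells without them. The doxycycline group received 2 µg/ml doxycycline (oncogenes off), the withdrawal group received neither agent (oncogenes on), and the estradiol group received no doxycycline and estradiol for 48 h, given in the labels as 1 mM (oncogenes on, fusion active). Each group had 2 arrays, with RNA extracted by RNeasy for replicate 1 and by TRIzol for replicate 2. The second doxycycline array also has estradiol in its title, although its treatment entry holds doxycycline alone. Nothing in the labels tells whether the replicates of a group were grown apart. The p-values therefore reflect array-to-array spread, part of which may be technical.

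The arrays did not all group by their labels. Among 7453 probe sets bright enough to be tested, 16 differed at least 2-fold between withdrawal replicate 1 and estradiol replicate 1, and none of these read a receptor or ligand gene studied here. Withdrawal replicate 2 differed at least 2-fold from withdrawal replicate 1 in 920 probe sets, 3 of them among the 8 probe sets tested for these genes. Withdrawal replicate 2 differed from estradiol replicate 2 in 649 on that scale, and 6 of these 8 were among them. Of 9 measured fibroblast markers, 7 lay above the brightness limit (a signal of about 29.0) on every array, while Vim and Lum did not. The summed signal of the 9 was 24929 to 26166 with doxycycline, 20066 to 23676 after withdrawal and 15508 to 20066 with estradiol. Single markers did not all follow the sum. S100a4 was highest on withdrawal replicate 1 (7321), and Col3a1 (2187) and Sparc (1371) were highest on withdrawal replicate 2. Each marker gene was read by its probe set of highest mean signal. Among markers of other cell types, 1 epithelial gene (Cdh1, 76.6 to 171.6), 3 macrophage genes (Cd14, 257.4 to 379.1, Csf1r, 81.8 to 155.4, and Cd68, 70.1 to 132.1) and 2 muscle genes (Myod1, 53.6 to 88.2, and Myog, 33.8 to 107.7) also lay above that limit on every array. No endothelial or lymphocyte gene did, and Epcam reached 8.1 at most, Cdh5 5.5, Ptprc 7.4 and Adgre1 13.8. The whole lists of other markers summed to 153 to 272 for 6 epithelial genes, 42.2 to 87.1 for 5 endothelial genes, 516 to 565 for 5 macrophage genes, 34.4 to 60.3 for 4 lymphocyte genes and 134 to 227 for 4 muscle genes. The ratio of the 3′ to the 5′ control probe set, a measure of RNA integrity, was 1.04 to 1.05 with doxycycline, 1.07 to 1.11 after withdrawal and 1.14 to 1.16 with estradiol for beta-actin, and 0.737 to 0.921 over all arrays for Gapdh. The part of these shifts in the results below was not tested.

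The sequences ahead of 4 of the genes are shown. Pdgfra, Fgf7 and Igf1r were taken because they had the lowest estradiol against doxycycline values while their promoters differ in kind. Met was taken because it alone of the 8 genes searched held an E-box or an AP-1 motif. RefSeq (GRCm38.p6) start sites were matched for 8 of the 10 genes, at 10 start sites. Pdgfrb and Fgfr1 had no matched start site and were not searched. The 250 bases before each start were searched on both strands for the E-box bound by Myc (CACGTG), the AP-1 motif (TGANTCA), the GC box (GGGCGG) and an IRF motif (GAAANN followed directly by GAAA). Capitals mark the matches, which did not overlap each other.
Pdgfra, chr5:75152001-75152250, + strand: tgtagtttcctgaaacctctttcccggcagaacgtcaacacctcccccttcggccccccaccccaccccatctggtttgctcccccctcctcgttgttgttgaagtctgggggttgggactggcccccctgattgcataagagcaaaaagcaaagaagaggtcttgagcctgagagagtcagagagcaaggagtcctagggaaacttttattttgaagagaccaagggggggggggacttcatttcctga
Fgf7, chr2:126034408-126034657, + strand: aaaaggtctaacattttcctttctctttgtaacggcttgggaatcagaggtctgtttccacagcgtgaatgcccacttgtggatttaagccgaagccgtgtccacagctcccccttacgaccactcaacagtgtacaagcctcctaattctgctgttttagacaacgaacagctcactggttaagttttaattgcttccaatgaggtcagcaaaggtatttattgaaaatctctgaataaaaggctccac
Igf1r, chr7:67952007-67952256, + strand: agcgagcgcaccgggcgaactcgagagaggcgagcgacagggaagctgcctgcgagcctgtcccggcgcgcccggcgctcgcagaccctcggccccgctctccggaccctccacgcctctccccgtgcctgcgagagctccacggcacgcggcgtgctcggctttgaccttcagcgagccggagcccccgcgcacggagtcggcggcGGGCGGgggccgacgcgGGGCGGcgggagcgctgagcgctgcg
Met, chr6:17463707-17463956, + strand: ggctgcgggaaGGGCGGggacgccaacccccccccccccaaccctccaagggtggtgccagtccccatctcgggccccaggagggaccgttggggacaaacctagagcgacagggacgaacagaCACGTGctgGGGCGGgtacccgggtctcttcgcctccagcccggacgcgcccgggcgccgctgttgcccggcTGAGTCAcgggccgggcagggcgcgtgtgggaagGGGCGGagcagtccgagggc

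The promoter of Pdgfra was 54.4% G and C and that of Fgf7 43.6%, and neither held any of the 4 motifs. The Igf1r promoter was 77.6% G and C, more than 97.6% of the 32851 promoter windows of this length, and held 2 GC boxes. The Met promoter was 74.0% G and C and held 1 E-box, 1 AP-1 motif and 3 GC boxes. Over all windows, 6.02% held the E-box, 6.75% the AP-1 motif, 32.7% the GC box and 2.98% the IRF motif. The windows of Egfr and Fgf2 each held 1 GC box, the 2 windows of Pdgfa held 1 and 2, and those of Hgf held no match. A match describes the letters only, and its absence concerns only this window.

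Signals are MAS5 intensities on a linear scale. Fold changes are on a log2(signal + 32) scale, with a standard error (SE), and understate the change of dim probe sets. The test was limma with Benjamini-Hochberg adjustment over all 7453 probe sets and a threshold of 0.05. Of the 14 probe sets, 8 were bright enough to be tested, and they covered 7 genes: Pdgfra (2 probe sets), Pdgfrb, Fgfr1, Igf1r, Met, Fgf7 and Pdgfa. The brightness limit was set on the mean over all 6 arrays, so a probe set that was bright in 1 group could enter through that group, as Met and the dimmer Pdgfra probe set could. Signals of different probe sets are not compared with each other. In cultured cells read in bulk, fewer expressing cells and less RNA per cell cannot be told apart.

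None of the 8 probe sets passed the test in any comparison, and 0 of 7453 probe sets (0%) passed in any of them. The estradiol and doxycycline groups differ in doxycycline, the oncogenes and estradiol together, so their parts cannot be told apart there. In the estradiol against doxycycline comparison, 7 of the 8 were lower in the estradiol group (49.6% of all probe sets tested). The median log2 fold change was -1.02, against 0.0035 over all probe sets tested. The 2 largest differences were those of the ligand Fgf7 and the brighter probe set of the receptor Pdgfra, each more than 4-fold. The dimmer Pdgfra probe set was 2.11-fold lower, and the Fgf7 value was -1.15 without estradiol replicate 2. Pdgfa, the ligand of the Pdgfra receptor, hardly differed between groups. After withdrawal alone, the values of Pdgfrb, Fgfr1 and the brighter Pdgfra probe set moved by over 0.5 when withdrawal replicate 2 was left out, as given below for each.

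Pdgfra, a receptor for platelet-derived growth factor, was read at high signal by the brighter of its tested probe sets. Its signals were 2587 and 1966 on the doxycycline arrays, 591 and 2139 on the withdrawal arrays and 617 and 360 on the estradiol arrays. Both estradiol arrays and withdrawal replicate 1 were low, and withdrawal replicate 2 lay between the doxycycline arrays. The means were 2276 ± 439 (SD, n = 2) with doxycycline, 1365 ± 1094 (SD, n = 2) after withdrawal and 489 ± 182 (SD, n = 2) with estradiol. Against doxycycline, estradiol gave a log2 fold change of -2.18 (SE 0.55, 95% interval -3.45 to -0.91, limma adjusted p = 0.255), or 4.53-fold lower, from -2.01 (replicate 1) and -2.35 (replicate 2). Only 0.201% of all probe sets had a lower value.

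The call for Pdgfra depended on whether the withdrawal arrays shared in the estimate of the spread. With only the estradiol and doxycycline arrays in the fit, the value of -2.18 (SE 0.31) had a limma adjusted p of 0.0286, and 132 of 7453 probe sets passed. Without withdrawal replicate 1, or without withdrawal replicate 2, the value was also -2.18. The withdrawal array that remains adds nothing to the spread, so these fits nearly repeat the one before and are no further support. Over the alternatives the adjusted p ranged from 0.0281 to 0.909, and without the doxycycline array whose title names estradiol the log2 fold change was -2.38 (adjusted p = 0.761). All 4 pairings of an estradiol with a doxycycline array were lower with estradiol.

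After withdrawal alone, the same Pdgfra probe set gave -0.98 (SE 0.55, adjusted p = 0.925). That mean joined -2.07 in replicate 1 with 0.12 in replicate 2. It was -1.88 without withdrawal replicate 2 (adjusted p = 0.172) and -0.076 without withdrawal replicate 1. Estradiol against withdrawal gave -1.20 (SE 0.55, adjusted p = 1.00), from 0.061 (replicate 1) and -2.47 (replicate 2), and -0.30 without withdrawal replicate 2. The order of the group means was doxycycline, withdrawal, estradiol, and neither neighbouring pair differed beyond its spread.

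The dimmer Pdgfra probe set had signals of 82.1 and 104.9 on the doxycycline arrays, 60.9 and 25.5 on the withdrawal arrays and 20.0 and 35.5 on the estradiol arrays. Here both doxycycline arrays were above all 4 others, and withdrawal replicate 2 was among the low arrays, unlike in the brighter probe set. The estradiol arrays against the doxycycline arrays gave -1.08 (SE 0.31, adjusted p = 0.257), from -1.13 (replicate 1) and -1.02 (replicate 2). The withdrawal arrays against the doxycycline arrays gave -0.77 (SE 0.31, adjusted p = 0.925) and -0.43 without withdrawal replicate 2. The 2 probe sets thus differed on the withdrawal arrays, with replicate 2 over replicate 1 at 0.419 in this one and 3.62 in the brighter one. The third Pdgfra probe set stayed between 3.4 and 7.2 on all arrays, below the brightness limit.

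**Figure D1:**
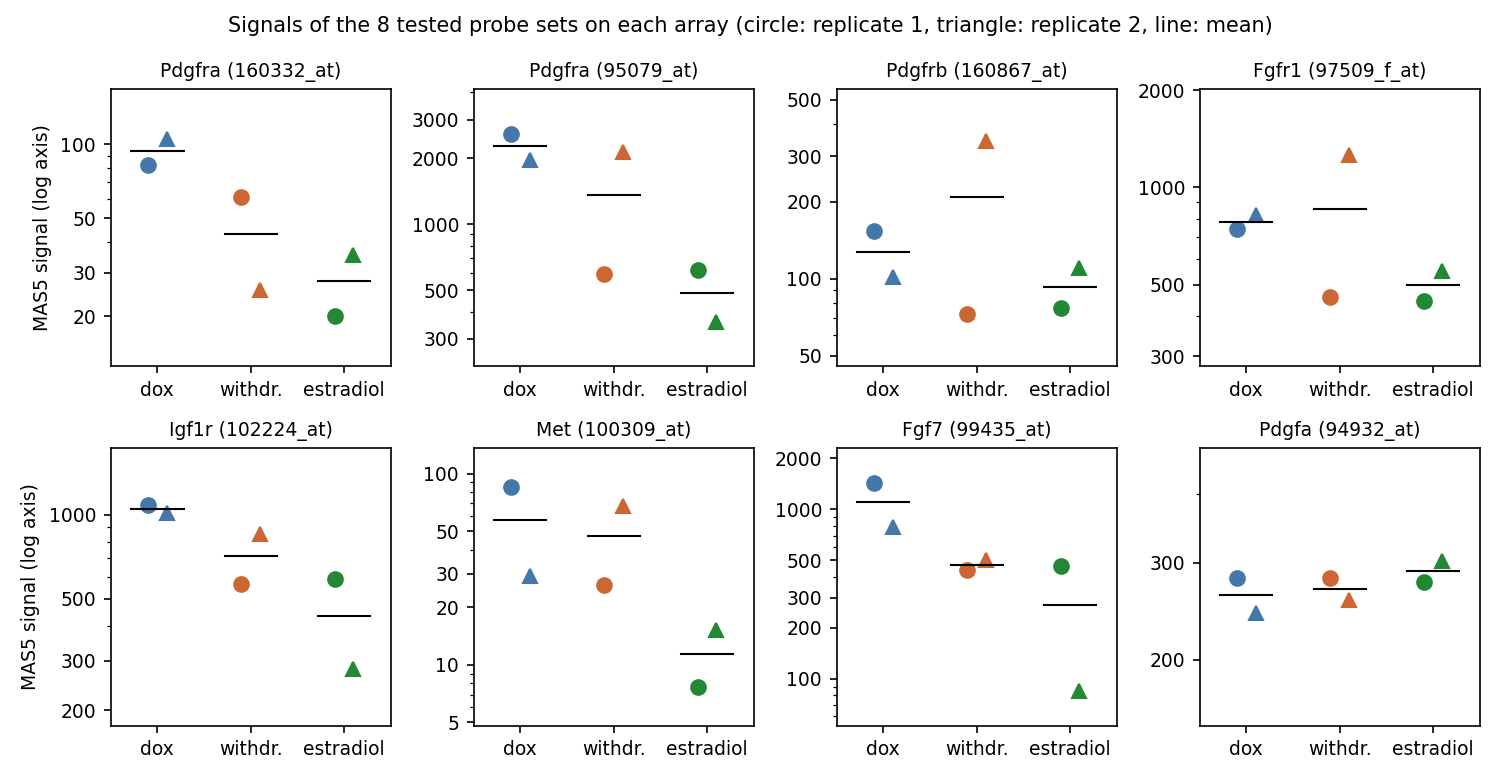
MAS5 signal (log axis) of the 8 tested probe sets on each array, by group, with circles for replicate 1, triangles for replicate 2 and a line at the group mean (n = 2). The brighter Pdgfra probe set runs from 2587 and 1966 with doxycycline to 617 and 360 with estradiol, withdrawal replicate 2 is the highest array for Pdgfrb (343.9) and Fgfr1 (1260), and Pdgfa stays between 243.1 and 302.9.

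Pdgfrb, the second receptor for platelet-derived growth factor, had overlapping groups in every comparison. Its signals were 152.8 and 101.7 on the doxycycline arrays, 72.6 and 343.9 on the withdrawal arrays and 76.5 and 109.5 on the estradiol arrays. Withdrawal replicate 2 was the highest of the 6 arrays and withdrawal replicate 1 the lowest, a 4.74-fold span within 1 group. Withdrawal against doxycycline gave 0.34 (SE 0.53, 95% interval -0.89 to 1.56, adjusted p = 0.955), which was -0.59 without withdrawal replicate 2 and 1.26 without withdrawal replicate 1. Against doxycycline, estradiol gave -0.34 (SE 0.53, adjusted p = 0.811), and the arrays of these groups overlapped. The interval of -1.57 to 0.88 leaves room for a difference of more than 2-fold downwards.

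Fgfr1, the main fibroblast receptor for Fgf2, had signals of 742.6 and 820.6 on the doxycycline arrays, 456.1 and 1260 on the withdrawal arrays and 446.2 and 549.6 on the estradiol arrays. Both estradiol arrays and withdrawal replicate 1 were below the doxycycline arrays, and withdrawal replicate 2 was above them. The estradiol arrays against the doxycycline arrays gave -0.62 (SE 0.44, adjusted p = 0.560), from -0.70 (replicate 1) and -0.55 (replicate 2). Withdrawal against doxycycline gave -0.033 (SE 0.44, adjusted p = 0.997), joining -0.67 in replicate 1 with 0.60 in replicate 2, and -0.74 without withdrawal replicate 2 or 0.67 without withdrawal replicate 1. The suffix of this probe set (_f_at) marks probes that can also read related sequences, so its signal is uncertain as a measure of Fgfr1 alone.

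Igf1r, the receptor for the insulin-like growth factors, had the closest doxycycline replicates among the tested probe sets of the receptors. The doxycycline arrays read 1078 and 1013, the withdrawal arrays 567 and 854 and the estradiol arrays 588.5 and 281. All 4 arrays without doxycycline were below both doxycycline arrays, with the lowest value on estradiol replicate 2. Against doxycycline, estradiol gave -1.29 (SE 0.38, 95% interval -2.17 to -0.41, adjusted p = 0.257), or 2.44-fold lower, from -0.84 (replicate 1) and -1.74 (replicate 2). It was -0.80 without estradiol replicate 2 and -1.78 without estradiol replicate 1. The withdrawal arrays against the doxycycline arrays gave -0.56 (SE 0.38, adjusted p = 0.935) and -0.28 without withdrawal replicate 1. The 4 arrays without doxycycline against the 2 with it gave -0.93 (SE 0.33, adjusted p = 0.364).

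Met, the receptor for hepatocyte growth factor, was dim. The doxycycline arrays read 84.8 and 29.0, the withdrawal arrays 26.3 and 68.0 and the estradiol arrays 7.7 and 15.2. Both estradiol arrays were below all the others, and the other groups overlapped. The estradiol arrays against the doxycycline arrays gave -0.96 (SE 0.38, adjusted p = 0.338) and -0.49 without doxycycline replicate 1 and -1.43 without doxycycline replicate 2. Estradiol against withdrawal gave -0.82 (SE 0.38, adjusted p = 1.00), from -0.55 (replicate 1) and -1.08 (replicate 2). Met was the one tested probe set with no overlap between estradiol and withdrawal arrays (1 of 8 lower, against 10.2% of all probe sets). Its mean with estradiol was below the brightness limit, so it could enter the test through the other groups. Of the 6 tested probe sets that reached the limit in every group, 0 were lower without overlap (9.81% of the 6832 that did so). Its size rested on the offset, with -1.31 for estradiol against doxycycline at an offset of 16 and -0.64 at an offset of 64.

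Egfr, the receptor for epidermal growth factor, was near the bottom of the scale in all 3 of its probe sets. The signals were between 2.8 and 27.8 in the first, between 1.1 and 2.9 in the second and between 9.9 and 27.6 in the third. None reached the brightness limit on any array, so these data give no direction for Egfr.

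Fgf7, the keratinocyte growth factor that fibroblasts secrete, had the lowest estradiol against doxycycline value of the 8 probe sets. Its signals were 1434 and 790 on the doxycycline arrays, 437 and 501 on the withdrawal arrays and 463 and 84.6 on the estradiol arrays. Every array without doxycycline was below both doxycycline arrays, and withdrawal replicate 2 was low here, beside withdrawal replicate 1. Estradiol replicate 2 stood apart from the other 3 arrays without doxycycline, which lay between 437 and 501. The means were 1112 ± 455 (SD, n = 2) with doxycycline, 469 ± 45.3 (SD, n = 2) after withdrawal and 274 ± 267 (SD, n = 2) with estradiol.

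Estradiol against doxycycline gave -2.19 for Fgf7 (SE 0.61, 95% interval -3.60 to -0.79, adjusted p = 0.255), or 4.57-fold lower, and 0.161% of all probe sets had a lower value. The replicates gave -1.57 (replicate 1) and -2.82 (replicate 2), and the mean was -1.15 without estradiol replicate 2. Over the alternatives the adjusted p ranged from 0.0913 to 0.909. Withdrawal against doxycycline gave -1.13 (SE 0.61, adjusted p = 0.925), from -1.64 (replicate 1) and -0.62 (replicate 2). Leaving out withdrawal replicate 2 gave -1.23 and leaving out withdrawal replicate 1 gave -1.04, so this value did not turn on either withdrawal array. Without doxycycline replicate 2 it was -1.55 and without doxycycline replicate 1 it was -0.72. Estradiol against withdrawal gave -1.06 (SE 0.61, adjusted p = 1.00), from 0.077 (replicate 1) and -2.19 (replicate 2), and -0.015 without estradiol replicate 2.

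Of the other ligands, Fgf2, the basic fibroblast growth factor, had signals between 2.1 and 17.0 on all arrays and was not tested. Hgf, the ligand of Met, had signals of 31.2 and 50.9 on the doxycycline arrays, 18.3 and 26.3 on the withdrawal arrays and 21.7 and 2.5 on the estradiol arrays. Both doxycycline arrays were above the other 4, though most of these signals lay at or below the brightness limit. In a limma fit with no limit on brightness, estradiol against doxycycline gave -0.75 for Hgf (SE 0.28, adjusted p = 0.467). It gave 0.26 for Fgf2 (SE 0.16, adjusted p = 0.628).

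Pdgfa, the A chain of platelet-derived growth factor, had the narrowest range of the tested probe sets. Its signals were 282.1 and 243.1 on the doxycycline arrays, 282.3 and 256.7 on the withdrawal arrays and 277.4 and 302.9 on the estradiol arrays, so the highest was 1.25 times the lowest. Against doxycycline, estradiol gave 0.13 (SE 0.26, adjusted p = 0.856), and the 95% interval of -0.46 to 0.72 excludes a 2-fold difference in either direction. Withdrawal against doxycycline gave 0.035 (SE 0.26, 95% interval -0.55 to 0.63, adjusted p = 0.993).

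**Figure D2:**
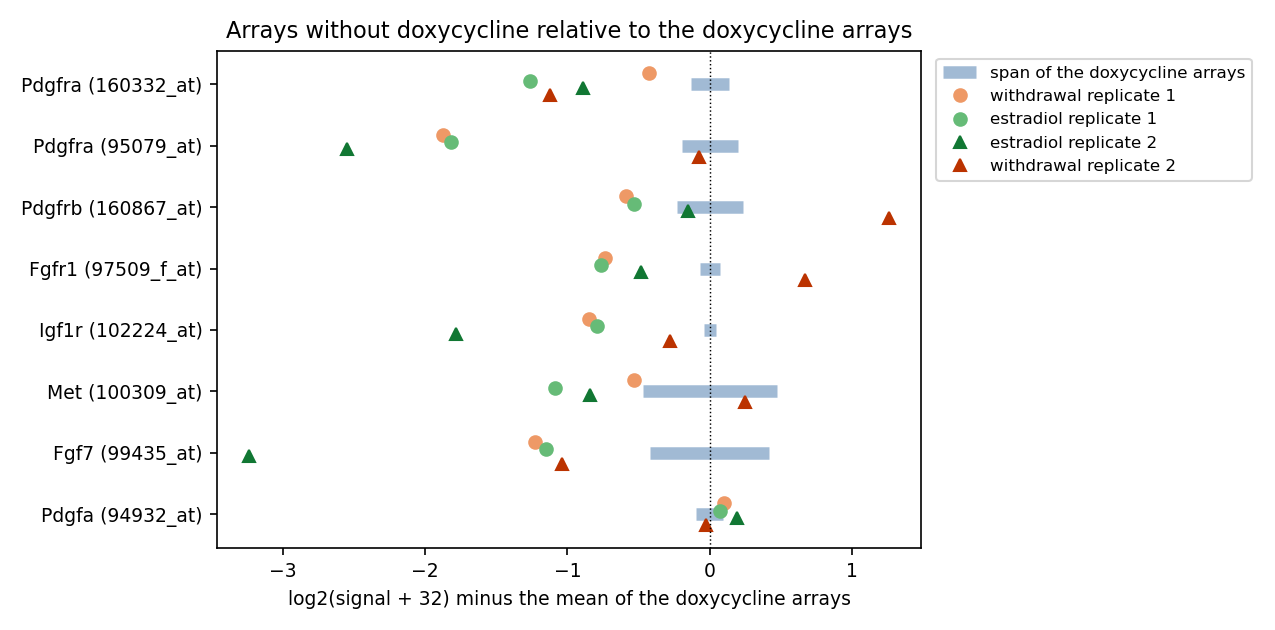
Each array without doxycycline, as log2(signal + 32) minus the mean of the doxycycline arrays, for the 8 tested probe sets, with a bar spanning the doxycycline arrays and the dimmer Pdgfra probe set in the top row. Withdrawal replicate 1 and estradiol replicate 1 lie together except for the dimmer Pdgfra probe set and Met, and withdrawal replicate 2 lies at 1.26 for Pdgfrb and 0.67 for Fgfr1 but at -1.04 for Fgf7.

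Set against the mean of the doxycycline arrays, 7 of the 8 probe sets were lower on withdrawal replicate 1, on estradiol replicate 1 and on estradiol replicate 2, with Pdgfa the exception on each. The medians were -0.66, -0.94 and -0.86. On withdrawal replicate 2, 5 of 8 were lower, with a median of -0.051. Over all probe sets tested, 47.9% to 50.3% were lower on these 4 arrays. The exceptions on withdrawal replicate 2 were Pdgfrb, Fgfr1 and Met. The brighter Pdgfra probe set there was at -0.076, inside the span of the doxycycline arrays, while Fgf7, Igf1r and the dimmer Pdgfra probe set were below that span.

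**Figure D3:**
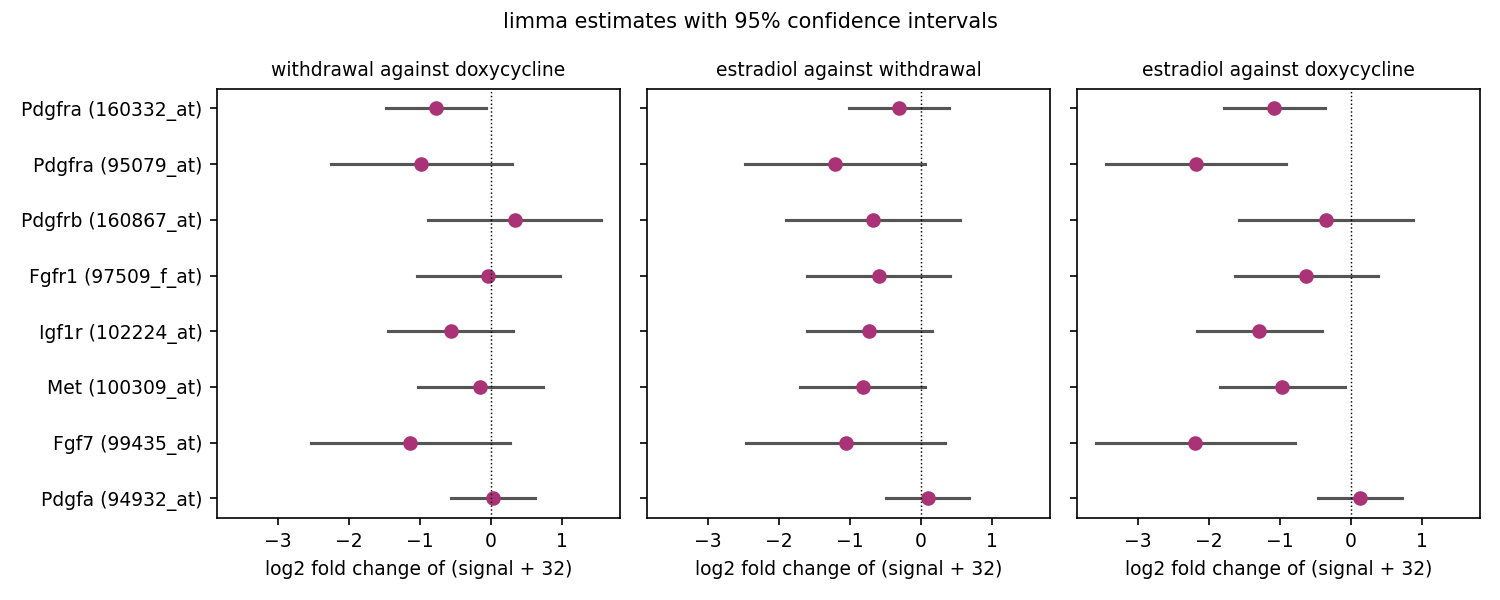
Log2 fold changes from limma with 95% confidence intervals for the 8 tested probe sets in each comparison of 2 groups, with the dimmer Pdgfra probe set in the top row. For estradiol against doxycycline the intervals of both Pdgfra probe sets, Igf1r, Met and Fgf7 lie below 0, and in the other comparisons only that of the dimmer Pdgfra probe set after withdrawal does, before any adjustment for multiple tests.

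Between estradiol and doxycycline, 5 of the 8 probe sets had an unadjusted p under 0.05 and were lower, against 5.66% of all probe sets tested. In 6 of 8 both estradiol arrays were below both doxycycline arrays, against 24.7% of all, and in 0 of 8 they were above, against 27.0%. Between withdrawal and doxycycline, 1 of 8 was lower at an unadjusted p under 0.05 (2.31% of all), and 3 of 8 had no overlap with lower values (15.0% of all). Between estradiol and withdrawal, 0 of 8 reached that unadjusted p, against 0.698% of all and 0.362% for lower values. For all 4 arrays without doxycycline against the 2 with it, 4 of 8 were lower at that unadjusted p (5.22% of all), and 3 of 8 had no overlap (11.3% of all). The estradiol and withdrawal comparisons share the same doxycycline arrays. These counts describe the 8 probe sets that were bright enough, not all 14. Met and the dimmer Pdgfra probe set had a mean below the brightness limit with estradiol. Among the 6 others, which reached the limit in every group, 3 were lower with estradiol than with doxycycline at an unadjusted p under 0.05, against 5.21% of the 6832 probe sets that did so. Of these 6, 4 had no overlap with lower values (24.4% of the 6832), and their median was -0.96. After withdrawal, 0 of the 6 were lower at that p (1.96% of the 6832), and 2 had no overlap with lower values (14.5%). For all 4 arrays without doxycycline, 3 of the 6 were lower at that p (4.82%), and 2 had no overlap (11.1%).

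**Figure D4:**
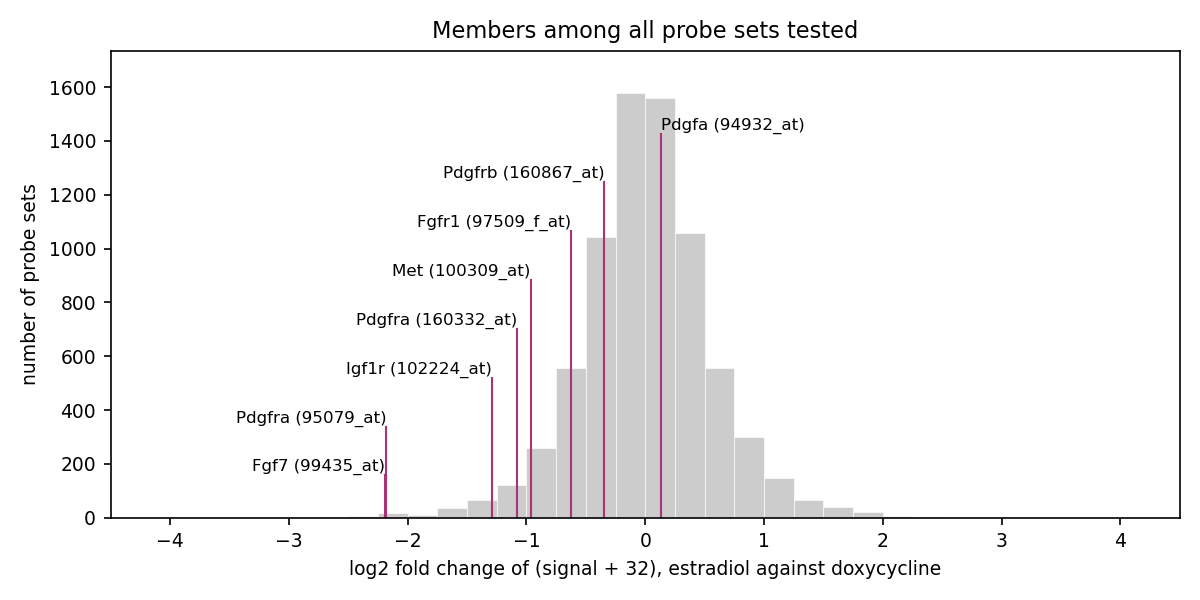
Histogram of the log2 fold changes of all 7453 probe sets for estradiol against doxycycline (number of probe sets per bin), with lines at the 8 tested probe sets of these genes. Fgf7 (-2.19) and the brighter Pdgfra probe set (-2.18) lie in the lower tail, and Pdgfa (0.13) lies near the centre.

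Other genes of the pathway came from lists of receptors, ligands and adaptors, and 0 of their probe sets passed in any comparison. Among other receptors, 8 of 23 genes with a probe set were tested, by 10 probe sets. For estradiol against doxycycline 5 were higher and 5 lower, with a median of -0.019. Fgfr2, the receptor through which Fgf7 acts, had signals of 440 and 147.9 on the doxycycline arrays, 71.9 and 226.6 on the withdrawal arrays and 64.9 and 26.3 on the estradiol arrays in the first of its 2 tested probe sets (-1.95, SE 0.56, adjusted p = 0.257). In the second they were 101.0 and 32.8, then 56.5 and 33.2, then 40 and 15, with overlap between the groups (-0.67, SE 0.39, adjusted p = 0.464). The collagen receptor Ddr1 had 268.2 and 294.4, then 109.8 and 339.4, then 124.4 and 123.5 (-1.01, SE 0.42, adjusted p = 0.345). Withdrawal replicate 2 lay above withdrawal replicate 1 for Ddr1 and the first Fgfr2 probe set, and below it for the second.

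Among other ligands, 11 of 33 genes were tested, by 12 probe sets. For estradiol against doxycycline 8 of 12 were lower (49.6% of all probe sets tested), with a median of -0.44. Of the 12, 7 had no overlap with lower values (24.7% of all) and 2 with higher values (27.0% of all). Csf1, the macrophage growth factor, had 1419 and 1324 on the doxycycline arrays, 681 and 1214 on the withdrawal arrays and 569.5 and 537 on the estradiol arrays (-1.26, SE 0.33, adjusted p = 0.255). Vegfa, the vascular endothelial growth factor, had 159.4 and 217.6, then 112.6 and 98.4, then 97.2 and 91.9 (-0.79, SE 0.26, adjusted p = 0.280). Its withdrawal arrays were both below both doxycycline arrays. Igf1, a ligand of Igf1r, had 202.7 and 302.8, then 165.8 and 170.5, then 143.4 and 161.4 (-0.61, SE 0.28, adjusted p = 0.373).

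Adaptors and enzymes next to the receptors were spread around 0, with a median of -0.091 for estradiol against doxycycline. Of 21 probe sets, 7 were higher and 14 lower, where 49.6% of all probe sets tested were lower. Rasa1, the GTPase-activating protein that switches Ras off, had signals of 48.1 and 69.9 on the doxycycline arrays, 92.6 and 137.9 on the withdrawal arrays and 97.1 and 189.0 on the estradiol arrays (0.90, SE 0.33, adjusted p = 0.307). All 4 arrays without doxycycline were above both doxycycline arrays. Pik3r2, a regulatory subunit of phosphoinositide 3-kinase, had 136.5 and 95.4, then 265.5 and 218.6, then 209.3 and 118.5, and withdrawal against doxycycline gave 0.90 (SE 0.32, adjusted p = 0.925). Shc1 was lower for estradiol against doxycycline, with 266.6 and 240.6, then 226.2 and 107.3, then 224.1 and 76.3 (-0.78, SE 0.45, adjusted p = 0.461). Src was lower for withdrawal against doxycycline, with 66.1 and 73.5, then 50.4 and 17.6, then 59 and 46 (-0.67, SE 0.30, adjusted p = 0.925). For estradiol against doxycycline, 6 of the 21 had no overlap with lower values (24.7% of all) and 4 with higher values (27.0% of all).

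The probe sets most like a receptor or ligand across the 6 arrays were sought among 6731 others by Pearson r of log2(signal + 32), as a description. For Fgf7 these were Cyba (r = 0.997) and Ctdsp2 (r = 0.994), and 158 probe sets exceeded 0.9. The brighter Pdgfra probe set was most like the metalloproteinase gene Mmp14 (r = 0.999) and Pld3 (r = 0.997), with 310 above 0.9. Pdgfrb was most like Pik3r1, another regulatory subunit of phosphoinositide 3-kinase (r = 0.998), and Arf4 (r = 0.996), with 266 above 0.9. Igf1r was most like Ift81 (r = 0.996) and Rarres2 (r = 0.993), with 202 above 0.9. The 6 points share 3 treatments, and withdrawal replicate 1 and estradiol replicate 1 nearly coincide. Among the receptors and ligands themselves, r was 0.954 between Igf1r and Fgf7, 0.938 between Igf1r and the brighter Pdgfra probe set, 0.909 between Pdgfrb and Fgfr1, and 0.460 between the 2 Pdgfra probe sets.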

How the data were processed

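RNA of 6 samples was read on 1-colour Affymetrix arrays, 1 per sample. The deposited intensities are MAS5 signals per probe set, per the submitters' processing notes, and the sources used here give no version. The number of arrays limits the precision. Arrays were scaled to a common trimmed mean (2% off each end), and log2(signal + 32) was taken. The 66 controls and the lowest 40% of the other probe sets by mean log2 signal were left out. Of 12422 non-control probe sets, 10833 had 1 gene symbol, 396 several and 1193 none. The 7453 kept were fitted with limma 3.58.1 in R 4.3.3 (1 mean per group, all 6 arrays, intensity trend, 3 residual and 5.23 prior degrees of freedom, two-sided). The script was tested on simulated data.

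The genes, lists and tests were chosen with earlier results of these data known. Named were all member probe sets, up to 3 per list with the smallest p in a comparison, and the 2 genes most like each of the 4 members of widest range. Alternatives were the offset, the filter, quantile normalization, no trend, a replicate block, leaving out each array and, chosen after seeing the data, fitting only the groups compared and counting only probe sets bright in every group. The replicate number goes with the extraction kit in the labels, so replicate and kit cannot be told apart. Deviations from the group means correlated at -0.0073 (doxycycline with withdrawal), -0.028 (doxycycline with estradiol) and 0.449 (withdrawal with estradiol).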

Additional observations from a re-analysis of the deposited data

How the results depend on the processing

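With 2 arrays per group, counts of called probe sets turned on single arrays. Leaving out 1 array gave 0 to 26 calls for withdrawal against doxycycline (26 without doxycycline replicate 1) and 0 to 17 for estradiol against withdrawal (17 without withdrawal replicate 1). It gave 0 to 133 for estradiol against doxycycline (131 without withdrawal replicate 1, 133 without withdrawal replicate 2, 28 without doxycycline replicate 1) and 0 to 180 for all arrays without doxycycline against those with it (180 without withdrawal replicate 2, 35 without doxycycline replicate 1). Fitting only the groups compared gave 132 for estradiol against doxycycline. Offsets, filters, quantile normalization and the intensity trend gave 0 calls in every comparison. At an unadjusted p under 0.05, limma had 326, 52, 1041 and 921 probe sets in the 4 comparisons. With the replicate block, the numbers at that p were 435, 64, 1219 and 1090, with 0 calls in each, and no other call changed.

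Of the receptor and ligand results, 412 alternatives kept the direction and side of the threshold, 16 changed sign and 4 passed, all 4 for the brighter Pdgfra probe set. Of the 4, 3 were estradiol against doxycycline, with only those groups fitted or without 1 withdrawal array. Those 3 fits nearly repeat each other. The fourth was all arrays without doxycycline against those with it, at -2.03 without withdrawal replicate 2. Many of the 412 could not change direction. Other filters, no intensity trend, the replicate block, fitting only the groups compared and leaving out an array of another group keep the estimate itself. Apart from an offset noted below, the sign changes came on leaving out 1 array. For withdrawal against doxycycline the ranges were -0.59 to 1.26 for Pdgfrb, -0.74 to 0.67 for Fgfr1, -0.61 to 0.32 for Met and -0.060 to 0.13 for Pdgfa. For estradiol against withdrawal they were -0.65 to 0.043 for the dimmer Pdgfra probe set, -1.60 to 0.24 for Pdgfrb and -1.29 to 0.11 for Fgfr1. For all arrays without doxycycline they were -0.47 to 0.46 for Pdgfrb (0.018 with an offset of 64, against -0.0040), -0.68 to 0.023 for Fgfr1 and -0.012 to 0.18 for Pdgfa. The cause was not tested.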

Other observations

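Inhibitors of receptor signalling and cofactors of the ligands were also read. Of 30 genes with a probe set, 21 were tested, by 26 probe sets, and 0 passed with limma in any comparison. For estradiol against doxycycline 12 were higher and 14 lower, with a median of -0.043, and 3 of 26 had an unadjusted p under 0.05 (1 higher, 2 lower), against 1041 of all 7453 probe sets (14.0%). Errfi1, a feedback inhibitor of the epidermal growth factor receptor, had signals of 623.9 and 702.8 on the doxycycline arrays, 473.6 and 325.8 on the withdrawal arrays and 489.7 and 141.3 on the estradiol arrays (log2 fold change -1.21, SE 0.49, adjusted p = 0.338). Every array without doxycycline was below both doxycycline arrays in this probe set. In the other tested Errfi1 probe set the signals were 482.0 and 651.4, then 473.2 and 542.0, then 480.5 and 230.3, and withdrawal replicate 2 lay between the doxycycline arrays. Plat, tissue plasminogen activator, had 350.4 and 379.5, then 199.4 and 321.5, then 197.4 and 215.6 (-0.74, SE 0.29, adjusted p = 0.338). Sh2b3, an adaptor that restrains cytokine receptors, was the one higher, with 80.9 and 93.5, then 177.4 and 90.1, then 183.2 and 154.0 (0.75, SE 0.31, adjusted p = 0.344). Adam10, a membrane protease that sheds ligands and receptors, had 288.7 and 302.2, then 200.1 and 108.7, then 231.6 and 113.5, and withdrawal against doxycycline gave -0.86 (SE 0.37, adjusted p = 0.925). For these probe sets no array of the estradiol group overlapped the doxycycline group.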
